A study of Mus musculus with 20 samples.

Results

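The insulin-like growth factor (IGF) axis was followed in microglia of the injured mouse spinal cord through 9 genes, which were *Igf1*, *Igf1r*, *Igf2r* and *Igfbp2* to *Igfbp7*. They were chosen by symbol, with earlier results of these data known, and all 9 were found among the 16810 genes of the deposited table. All mice were adult male CX3CR1+/eGFP heterozygotes on a C57BL/6 background, in which eGFP stands under the *Cx3cr1* promoter and marks microglia but also monocytes and other macrophages. The cord was cut at the thoracic T9 level by lateral hemisection (HS) or full transection (FT), a 1 cm segment around the lesion was taken at 72 h, 1 week or 2 weeks, and cells with high eGFP were sorted for RNA-Seq. Non-injured (NI) mice gave a thoracic segment of equal length. There were 20 libraries in 7 groups, 3 in each group except HS at 1 week, which had 2. The methods list many more mice than libraries, so a library may hold the RNA of several animals, and the p-values measure the spread between these libraries.

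IGF-1 is a small secreted hormone made by the liver and, locally, by many tissues, microglia among them. It acts on its receptor tyrosine kinase, IGF1R, which signals through insulin receptor substrates to the PI3K-AKT-mTOR and RAS-MAPK pathways and favours growth and survival. IGF2R, also known as the cation-independent mannose 6-phosphate receptor, carries lysosomal enzymes to endosomes and takes up IGF-2 for degradation without a kinase of its own. The IGF-binding proteins are secreted carriers that hold the ligands outside the cell, prolong their life and control their access to the receptor. In the nervous system IGF-1 is known as a trophic factor for neurons and oligodendrocytes.

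Each library held 3872918 to 34099232 reads on genes. Values are normalised counts, which the study's methods describe as normalised by library size, and are written here as CPM. In them 1 read was worth 0.0330 to 0.292 CPM. The columns did not share 1 total. They summed to 777426 to 830481 CPM in NI and to 878070 to 1202186 CPM in the injured libraries. Microglial genes (8 of 8 in the table) summed to 14000 to 28700 CPM in every library. The markers of the labelled cell type were thus abundant throughout. The summed genes of monocytes and macrophages (7 of 8 in the table) were 30.9 to 45.1 CPM in NI, 80.1 to 181 CPM in HS 72 h, 117 to 352 CPM in FT 72 h and 40.9 to 109 CPM later, and 5 cell cycle genes summed to 29.9 to 33.8 CPM in NI, 520 to 845 CPM at 72 h and 40.8 to 68.8 CPM later. None of the marker genes in the table was at 0 in every library of a group. In sorted bulk cells, a change in the number of cells of a type and a change in RNA per cell cannot be told apart.

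A gene was called in a comparison when limma gave an adjusted p under 0.05 over all 16810 genes, together with a difference of at least 2-fold on the log2(CPM + 0.5) scale. The fit used all 20 libraries with 1 mean for each group, and every comparison with NI used the same 3 NI libraries. Of the 9 genes, 3 were higher and 1 was lower in HS 72 h, beside 9.08% and 4.31% of all genes tested. In HS 1 week 2 were higher and 0 lower (all genes 1.70% and 0.482%), and in HS 2 weeks 2 were higher and 0 lower (all genes 2.43% and 0.797%). In FT 72 h 3 were higher and 0 lower (all genes 8.14% and 4.09%), in FT 1 week 2 and 0 (2.86% and 1.20%), and in FT 2 weeks 3 and 0 (3.53% and 1.36%). The median log2 difference of the 9 genes from NI ran from −0.01 in HS 2 weeks to 0.73 in FT 72 h, while that of all genes ran from −0.11 to 0.02. *Igf1* was called in all 6 comparisons, *Igf2r* and *Igfbp6* each in 4, *Igf1r* and *Igfbp5* each in 1, and *Igfbp2*, *Igfbp3*, *Igfbp4* and *Igfbp7* in none.

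**Figure D1:**
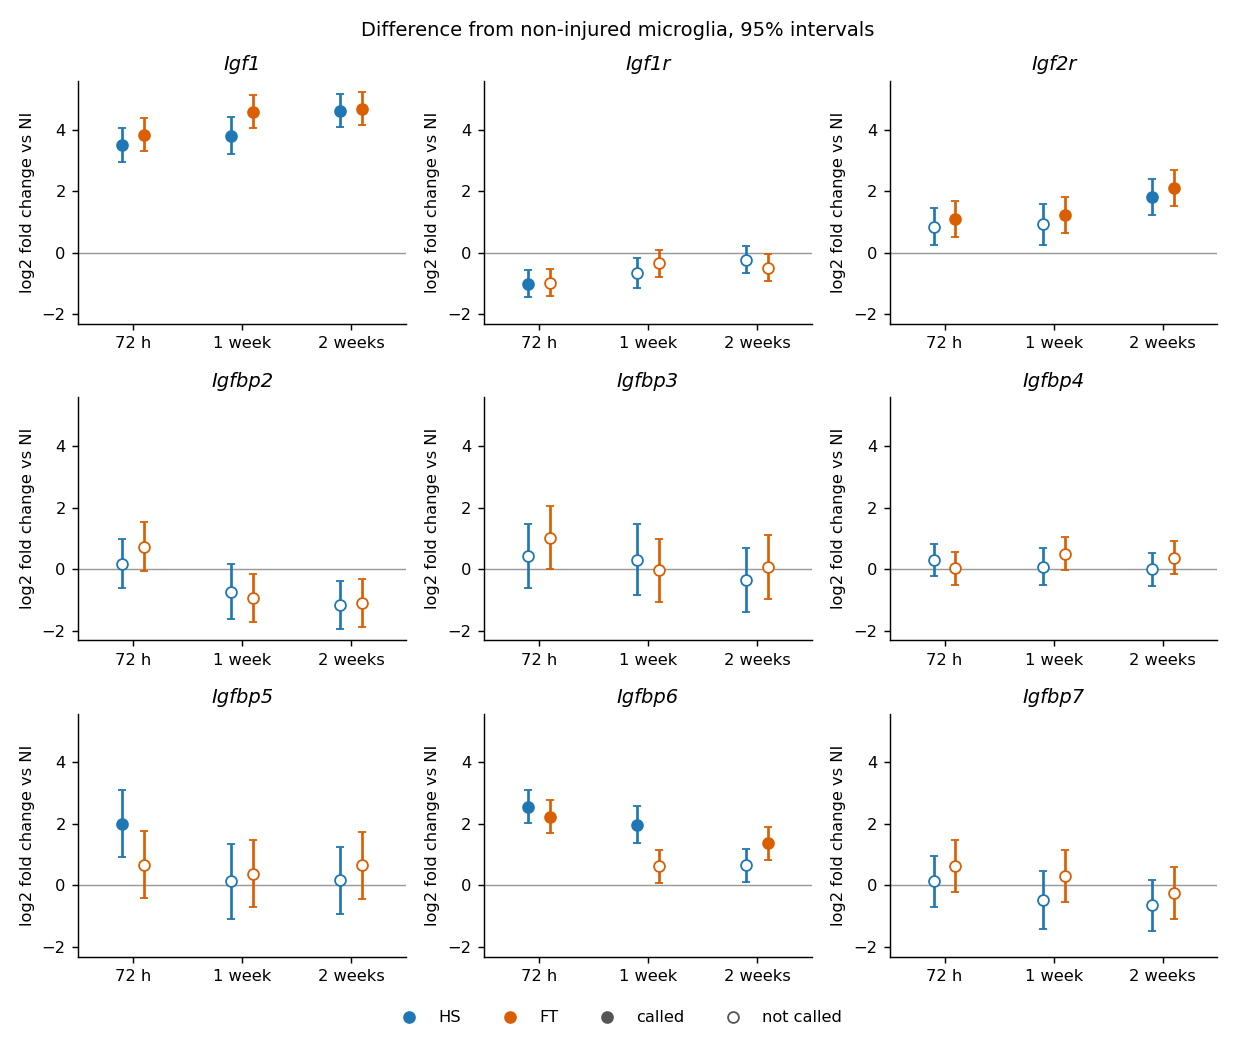
Log2 fold change of each gene in injured against NI microglia (vertical axes) at 72 h, 1 week and 2 weeks, after HS (blue) and FT (orange), on the log2(CPM + 0.5) scale. Bars are 95% intervals of the limma fit and filled points are called. *Igf1* stood between 3.50 and 4.68, *Igf2r* was highest at 2 weeks, and *Igfbp6* was highest at 72 h.

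*Igf1* encodes the ligand and lies on chromosome 10 (mm10, chr10:87858265-87937042, plus strand, 8 blocks of merged exons). In NI the 3 libraries held 8.34, 5.79 and 8.73 CPM. HS libraries held 67.5, 127 and 85.1 CPM at 72 h, 110 and 112 CPM at 1 week, and 205, 232 and 161 CPM at 2 weeks. Every HS library was above every NI library, and the libraries at 2 weeks were above all of those at 72 h and 1 week. After FT the values were 86.1, 160 and 109 CPM at 72 h, 139, 208 and 239 CPM at 1 week, and 246, 171 and 204 CPM at 2 weeks. Here too no injured library came near NI, and neighbouring times overlapped each other.

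These values gave an increase of *Igf1* over NI of 11.3-fold in HS 72 h (log2 3.50 ± 0.26 SE, limma adjusted p = 2.62e-09). The increase was 13.9-fold in HS 1 week (log2 3.80 ± 0.29, adjusted p = 2.44e-08) and 24.7-fold in HS 2 weeks (log2 4.62 ± 0.26, adjusted p = 1.09e-10). After FT it was 14.4-fold at 72 h (log2 3.84 ± 0.26, adjusted p = 6.69e-10), 23.8-fold at 1 week (log2 4.57 ± 0.26, adjusted p = 1.02e-10) and 25.6-fold at 2 weeks (log2 4.68 ± 0.26, adjusted p = 5.15e-11). All 6 calls held under every alternative run, with log2 differences between 3.01 and 4.81. Among the 7 groups the means went up in the order NI, HS 72 h, HS 1 week, FT 72 h, FT 1 week, HS 2 weeks and FT 2 weeks. NI and HS 72 h alone differed by a call between neighbours in that order. The 5 other steps were of 0.05 to 0.73 on the log2 scale, with libraries that overlapped.

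The increase of *Igf1* within the injured groups was tested between times. After HS, *Igf1* rose by 1.12 ± 0.26 on the log2 scale from 72 h to 2 weeks (95% interval 0.59 to 1.66, limma adjusted p = 0.00706), and the libraries did not overlap. Without HS 72 h replicate 1, which held the lowest injured value, the difference was 0.92 and the call was lost (adjusted p = 0.0667). After FT, the difference from 72 h to 2 weeks was 0.84 ± 0.26 with an adjusted p of 0.0607, again with no overlap. The step from 72 h to 1 week was 0.30 after HS and 0.73 after FT, and neither was called.

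**Figure D2:**
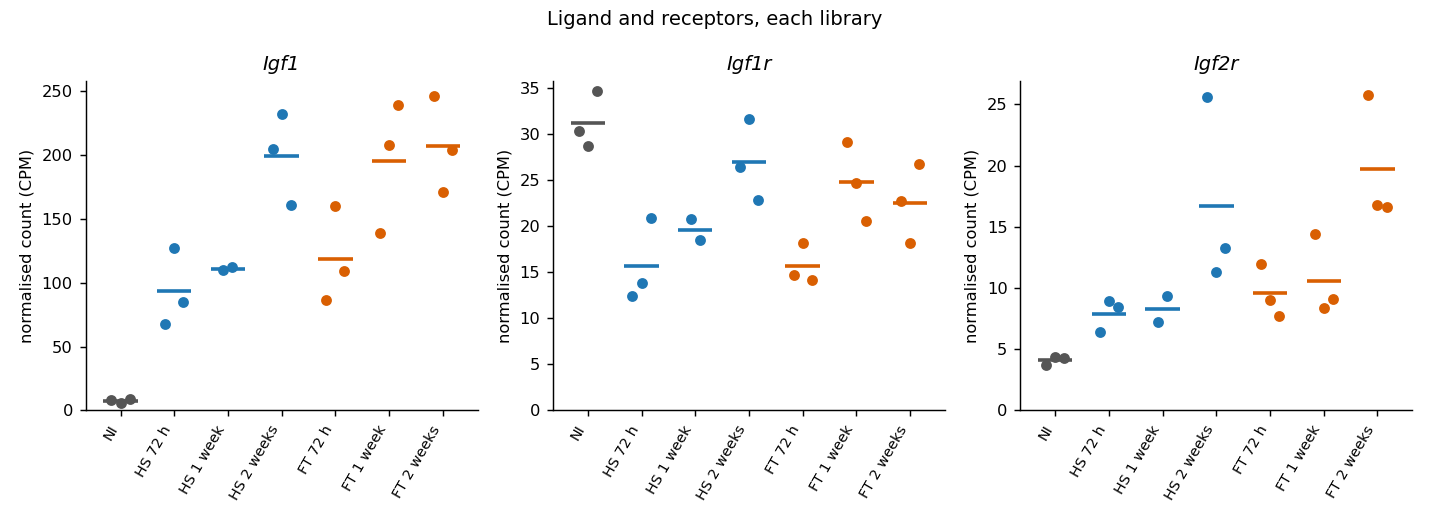
Normalised count (CPM, vertical axes from 0) of *Igf1*, *Igf1r* and *Igf2r* in each of the 20 libraries by group, with NI in grey, HS in blue and FT in orange; points are libraries and lines are group means. *Igf1* lay under 9 CPM in NI and between 67.5 and 246 CPM after injury, *Igf1r* was lowest at 72 h, and *Igf2r* was lowest in NI.

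*Igf1r*, the gene of the signalling receptor, lies on chromosome 7 (chr7:67952827-68233668, plus strand, 21 exon blocks). NI libraries held 30.3, 28.7 and 34.6 CPM. At 72 h the values were 12.4, 13.8 and 20.9 CPM after HS and 14.7, 18.1 and 14.1 CPM after FT, all below the lowest NI value. At 1 week HS libraries held 20.7 and 18.5 CPM and FT libraries 29.1, 24.7 and 20.5 CPM. At 2 weeks HS libraries held 26.4, 31.6 and 22.8 CPM and FT libraries 22.7, 18.1 and 26.7 CPM. So the receptor was lowest at 72 h, and the later group means lay between 72 h and NI, with libraries that overlapped NI in HS 2 weeks and FT 1 week.

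In HS 72 h *Igf1r* fell by 1.00 ± 0.21 on the log2 scale (adjusted p = 0.00130), at the edge of the 2-fold limit. In FT 72 h the difference was −0.98 ± 0.21 (adjusted p = 0.00175), just inside that limit and so not called. HS and FT at 72 h differed by 0.02 (95% interval −0.42 to 0.46), so the call in 1 injury and not in the other is no difference between them. The HS call was lost with 1 CPM added before the log (−0.98), with median-of-ratios scaling (−0.98), and without NI replicate 3 (−0.93), HS 72 h replicate 1 (−0.86) or HS 72 h replicate 2 (−0.93). The adjusted p stayed under 0.05 in each of these. The FT difference was called under 8 of 18 alternatives, which were quantile normalization, columns scaled to 1 total, no fold limit, both edgeR tests, DESeq2, and leaving out NI replicate 2 or FT 72 h replicate 2. From 72 h to 2 weeks *Igf1r* was higher by 0.78 after HS (adjusted p = 0.0212, under the 2-fold limit) and by 0.50 after FT (adjusted p = 0.187).

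*Igf2r* lies on chromosome 17 (chr17:12682406-12769664, minus strand, 49 exon blocks), and its libraries in NI held 3.69, 4.38 and 4.32 CPM. After HS the values were 6.37, 8.95 and 8.41 CPM at 72 h, 7.22 and 9.38 CPM at 1 week, and 25.6, 11.3 and 13.3 CPM at 2 weeks. After FT they were 12, 9.05 and 7.75 CPM at 72 h, 14.4, 8.36 and 9.07 CPM at 1 week, and 25.8, 16.8 and 16.6 CPM at 2 weeks. Every injured library exceeded every NI library, and 1 library in each 2-week group was well above its fellows. Without those libraries the differences at 2 weeks were 1.47 after HS (adjusted p = 0.00263) and 1.90 after FT (adjusted p = 0.000388). The high HS library was HS 2 weeks replicate 1, whose fibroblast and meninges genes summed to 93.2 CPM. In the high FT library, FT 2 weeks replicate 1, they summed to 7.77 CPM, the lowest of all libraries. HS 72 h replicate 1 had the highest sum, 116 CPM, and the lowest *Igf2r* value of the injured libraries, 6.37 CPM. The part of these cells in *Igf2r* was not tested.

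*Igf2r* rose 3.51-fold in HS 2 weeks (log2 1.81 ± 0.28, adjusted p = 0.000255) and 4.30-fold in FT 2 weeks (log2 2.10 ± 0.28, adjusted p = 2.83e-05). It also rose in FT 72 h (log2 1.11 ± 0.28, adjusted p = 0.00645) and FT 1 week (log2 1.23 ± 0.28, adjusted p = 0.00838). In HS 72 h the difference was 0.85 (adjusted p = 0.0294, under the 2-fold limit), and in HS 1 week it was 0.92 (adjusted p = 0.152). The FT 72 h call was lost without FT 72 h replicate 1 (0.94) and with all columns scaled to 1 total (0.68), and the FT 1 week call without FT 1 week replicate 1 (1.00, just under the limit) and with the same scaling (0.91). That scaling moved the median of all genes to −0.48 in FT 72 h and −0.32 in FT 1 week. Between 72 h and 2 weeks the gene differed by 0.96 after HS (adjusted p = 0.0324) and 1.00 after FT (adjusted p = 0.0390), both just short of 2-fold. The antisense gene *Airn* overlaps *Igf2r* but shares 0 exon bases with it, and was at 0.565 to 2.53 CPM.

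The stretch around the transcription start is shown for *Igf1* and *Igf2r*, the ligand and the receptor that rose in the most groups, as 250 bases before and 50 after the RefSeq start (GRCm38.p6, 5′ to 3′ on the gene's strand). The *Igf1* window is chr10:87860861-87861160, plus strand, and lies downstream of the outermost start that GENCODE gives for the gene. The *Igf2r* window is chr17:12769657-12769956, minus strand. Capitals mark CACGTG, a palindrome and so the same on both strands, which was chosen after the sequences were seen.
Igf1: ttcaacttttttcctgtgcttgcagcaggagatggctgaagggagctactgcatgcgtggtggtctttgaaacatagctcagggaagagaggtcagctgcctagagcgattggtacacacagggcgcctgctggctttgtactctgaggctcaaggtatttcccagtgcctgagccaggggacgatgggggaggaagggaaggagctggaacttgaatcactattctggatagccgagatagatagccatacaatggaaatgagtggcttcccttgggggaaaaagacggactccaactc
Igf2r: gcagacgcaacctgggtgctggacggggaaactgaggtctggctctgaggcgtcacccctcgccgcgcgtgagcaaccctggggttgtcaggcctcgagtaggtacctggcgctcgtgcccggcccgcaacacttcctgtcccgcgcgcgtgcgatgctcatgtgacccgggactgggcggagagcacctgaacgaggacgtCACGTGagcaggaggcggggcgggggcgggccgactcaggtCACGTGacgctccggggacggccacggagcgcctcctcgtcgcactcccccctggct

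CACGTG is the E-box letters bound by several basic helix-loop-helix factors. It occurred 2 times in the *Igf2r* window and 0 times in that of *Igf1*. Of all 32851 RefSeq windows of this length, 7.15% held it at least once and 0.594% held it 2 or more times. All 9 genes had a window in the table and *Igfbp2* had 2 windows, 1 of which held the motif once. A match is a description of the letters only.

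Among the binding proteins *Igfbp6*, which prefers IGF-2 over IGF-1, had the largest difference from NI (chr15:102144362-102149511, plus strand). NI libraries held 2.09, 1.16 and 1.15 CPM. HS libraries held 12.7, 12.1 and 8.20 CPM at 72 h, 6.54 and 7.58 CPM at 1 week, and 1.87, 2.57 and 3.26 CPM at 2 weeks. FT libraries held 10.1, 7.01 and 8.55 CPM at 72 h, 2.37, 2.40 and 2.60 CPM at 1 week, and 4.02, 5.49 and 4.05 CPM at 2 weeks. All libraries at 72 h were above all NI libraries, and HS 2 weeks overlapped NI again. The values rested on 9 to 386 reads a library.

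*Igfbp6* rose 5.89-fold in HS 72 h (log2 2.56 ± 0.26, adjusted p = 2.35e-07), 3.93-fold in HS 1 week (log2 1.97 ± 0.29, adjusted p = 0.000207) and 4.67-fold in FT 72 h (log2 2.22 ± 0.26, adjusted p = 1.73e-06). In FT 2 weeks it rose 2.59-fold (log2 1.37 ± 0.26, adjusted p = 0.00104). HS 2 weeks (0.65, adjusted p = 0.186) and FT 1 week (0.62, adjusted p = 0.176) were not called. These 4 calls held under every alternative run. From 72 h, *Igfbp6* fell by 1.91 to HS 2 weeks (adjusted p = 3.09e-05) and by 1.60 to FT 1 week (adjusted p = 0.000298). The time course of this carrier therefore ran opposite to that of *Igf1* after HS, where *Igf1* rose and *Igfbp6* fell from 72 h to 2 weeks.

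*Igfbp5* (chr1:72857932-72874884, minus strand) is a binding protein that is also held in the extracellular matrix. Its NI libraries held 2.98, 3.35 and 1.92 CPM and its HS 72 h libraries 43.6, 5.75 and 6.97 CPM. A single library, HS 72 h replicate 1, was thus far above all others, and across the 14 libraries of the remaining injured groups the values were 2.17 to 7.93 CPM. *Igfbp5* was called in HS 72 h (log2 2.00 ± 0.52, adjusted p = 0.00717), and without that library the difference was 1.10 and not called (adjusted p = 0.0635). The falls from HS 72 h to 1 week (−1.86, adjusted p = 0.0484) and to 2 weeks (−1.83, adjusted p = 0.0289) were likewise −0.97 (adjusted p = 0.238) and −0.93 (adjusted p = 0.227) without it.

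The same library held the highest summed level of genes of fibroblasts and meninges (7 of 8 in the table). That sum was 116 CPM in HS 72 h replicate 1, 31.8 and 44.9 CPM in the other two HS 72 h libraries, and 18.7 to 40.0 CPM in NI. HS 2 weeks replicate 1 had a sum of 93.2 CPM, with *Igfbp5* at 3.12 CPM. Pericyte and smooth muscle genes (5 of 6 in the table) also summed highest in HS 72 h replicate 1, at 22.8 CPM against 11.2 to 14.2 CPM in NI. It was the deepest library, with 34099232 reads. The part of these cells in *Igfbp5* was not tested.

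*Igfbp2* (chr1:72824503-72852474, plus strand), a carrier known from the developing brain and the choroid plexus, was at 1.37, 1.93 and 1.53 CPM in NI. HS libraries held 1.49, 3.02 and 1.44 CPM at 72 h, 0.953 and 0.601 CPM at 1 week, and 0.156, 1.50 and 0.121 CPM at 2 weeks. FT libraries held 2.37, 3.51 and 3.21 CPM at 72 h, 0.667, 1.01 and 0.237 CPM at 1 week, and 0.374, 0.610 and 0.458 CPM at 2 weeks. The gene was highest in FT 72 h, and all later FT libraries lay below NI. It rested on few reads, with 1 read in each of HS 2 weeks replicates 1 and 3.

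No comparison of *Igfbp2* with NI was called. The differences were −1.17 in HS 2 weeks (adjusted p = 0.0839) and −1.10 in FT 2 weeks (adjusted p = 0.0806). With the replicate number as a block, since same-numbered libraries deviated together in FT 2 weeks and NI, the latter was called (−1.10, adjusted p = 0.0429). It was also called with only the compared groups (adjusted p = 0.0121), columns scaled to 1 total (adjusted p = 0.0176), edgeR's likelihood ratio test (adjusted p = 0.0166) and DESeq2 (adjusted p = 0.0330), and not under the 13 others (adjusted p 0.0676 to 0.268). Against its own 72 h level, *Igfbp2* fell by 1.68 to FT 1 week (adjusted p = 0.00894) and by 1.84 to FT 2 weeks (adjusted p = 0.00380), both under all alternatives. After HS it fell by 1.35 from 72 h to 2 weeks (adjusted p = 0.0251). That call was lost without HS 72 h replicate 1, HS 72 h replicate 2, HS 2 weeks replicate 1 or HS 2 weeks replicate 3, and the libraries overlapped.

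*Igfbp4* (chr11:99041244-99054392, plus strand), whose product inhibits IGF action until it is cleaved, had the highest level per kb of the binding proteins in NI. It was at 14.0, 13.1 and 14.0 CPM in NI and 9.41 to 29.1 CPM in the injured libraries. Its differences from NI were −0.01 to 0.50 on the log2 scale, none was called, and their 95% intervals together ran from −0.54 to 1.03. The highest value was in FT 1 week replicate 1.

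*Igfbp3* (chr11:7206086-7213923, minus strand), the main carrier of IGF in blood, was close to the limit of detection. Its values were 0.477, 0.257 and 0.384 CPM in NI, and 0 in HS 2 weeks replicate 1 and FT 1 week replicate 2, where 3 reads would have given 0.468 and 0.232 CPM. The highest were HS 72 h replicate 1 (2.77 CPM, 84 reads) and FT 72 h replicate 1 (2.87 CPM, 23 reads). The former held the highest fibroblast sum (116 CPM) and the latter the highest monocyte and macrophage sum (352 CPM) of all libraries. The sums crossed over, at 80.1 CPM for monocytes and macrophages in the former and 37.9 CPM for fibroblasts in the latter. HS 2 weeks replicate 1 and FT 72 h replicate 2 had fibroblast sums of 93.2 and 53.5 CPM, with *Igfbp3* at 0 and 0.584 CPM. Whether those cells contributed was not tested. In FT 72 h the 3 libraries (2.87, 0.584 and 0.979 CPM) were above NI with a difference of 1.02 (adjusted p = 0.143), and no comparison was called.

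*Igfbp7* (chr5:77349240-77408041, minus strand), which binds IGF weakly and is best known from blood vessels, was at 1.85, 0.515 and 1.34 CPM in NI and 0.281 to 3.41 CPM after injury. No comparison was called, and the log2 differences from NI were −0.65 to 0.62. Its exons share 85 bases (7.03%) with *Polr2b*, a protein-coding gene on the opposite strand, which was at 23.0 to 86.5 CPM. Strand was not stated for these libraries, so reads on the shared bases cannot be assigned. Both *Igfbp7* and *Igfbp4* were highest in FT 1 week replicate 1, the library with the lowest sum of microglial genes (14000 CPM).

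**Figure D3:**
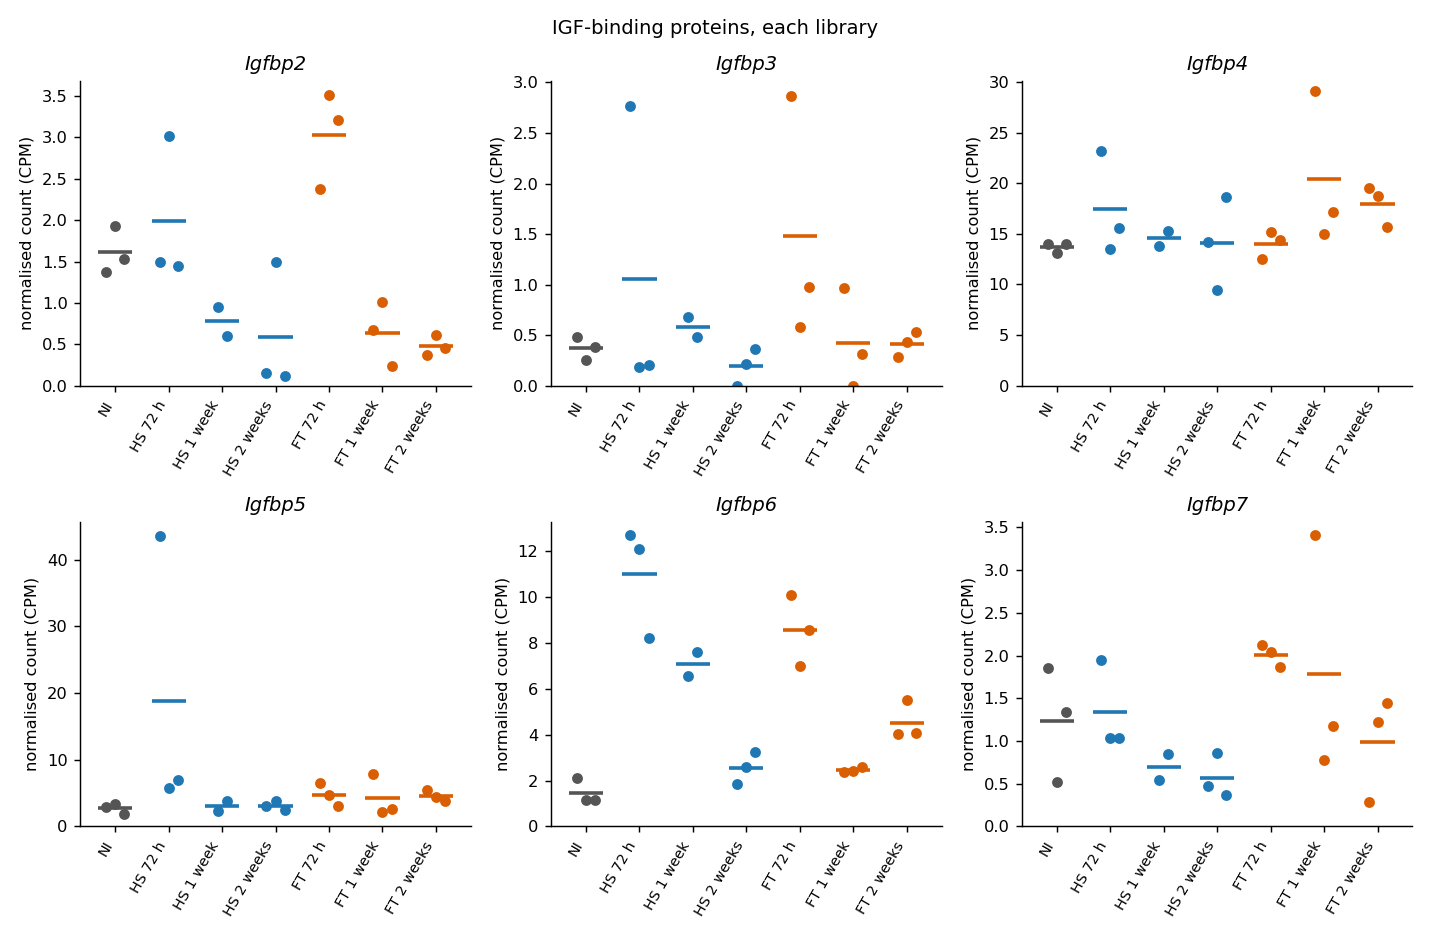
Normalised count (CPM, vertical axes from 0, scale set for each gene) of the 6 binding protein genes in each of the 20 libraries by group, with NI in grey, HS in blue and FT in orange; points are libraries and lines are group means. *Igfbp6* was highest at 72 h after both injuries, and the *Igfbp5* mean in HS 72 h rested on 1 library at 43.6 CPM.

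To compare levels between genes, values were divided by the merged exon length, which counts exons a cell may not use. In NI the highest of the 9 genes was *Igfbp4* at 3.10 ± 0.115 CPM per kb (SD, n = 3), followed by *Igf1r* at 1.86 ± 0.182 and *Igfbp6* at 1.32 ± 0.483. *Igf1* was at 0.769 ± 0.161 CPM per kb. At 72 h after HS *Igf1* (9.41 ± 3.09) and *Igfbp6* (9.90 ± 2.20) were at like levels and above the other genes. By 2 weeks *Igf1* had the highest mean, at 20.1 ± 3.63 after HS and 20.9 ± 3.81 after FT, against 3.19 ± 1.04 and 4.07 ± 0.448 for *Igfbp4*. *Igf2r* was below *Igf1r* in NI (0.444 against 1.86 CPM per kb) and above it in FT 2 weeks (2.12 ± 0.565 against 1.34 ± 0.254).

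**Figure D4:**
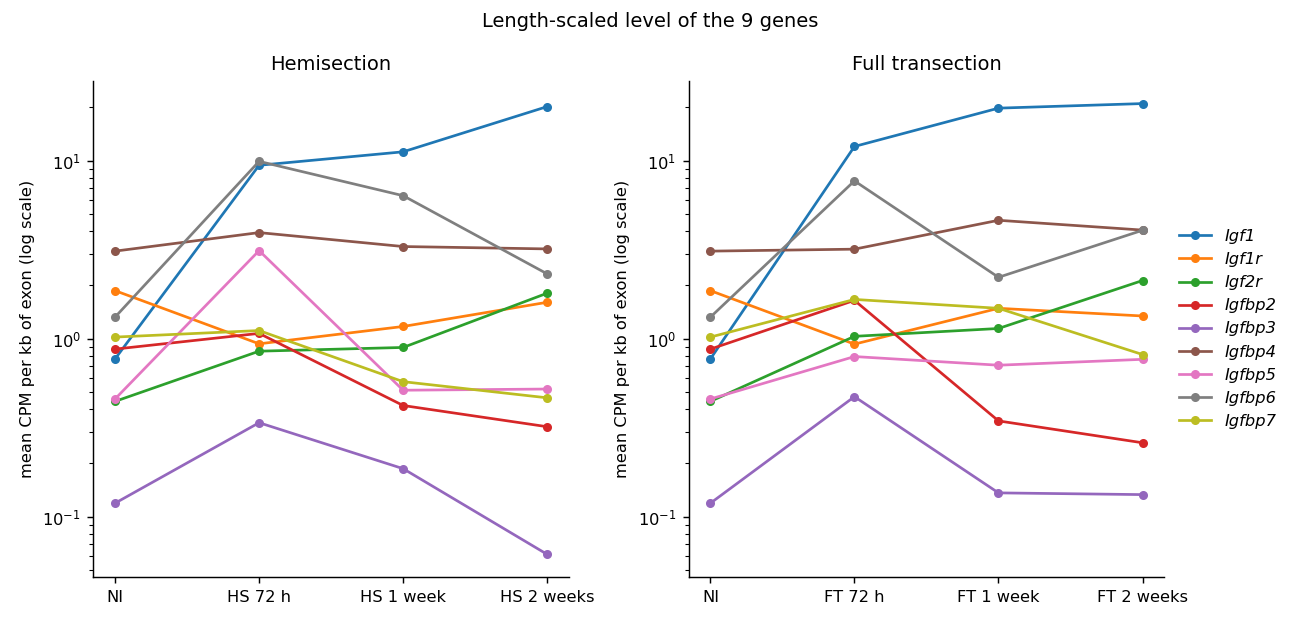
Group mean of CPM per kb of merged exons (vertical axes, log scale) of the 9 genes in NI and at 3 times after HS (left) and FT (right). *Igf1* went from 0.769 in NI to 20.1 and 20.9 at 2 weeks, while *Igfbp4* stayed between 3.10 and 4.62.

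Ratios within a library do not depend on how libraries were scaled, and were computed after the values had been seen. The ratio of *Igf1* to *Igf1r* per kb was 0.466, 0.342 and 0.427 in the NI libraries and 6.90 to 19.7 in the 17 injured libraries. The ligand transcript was thus below the receptor transcript in every NI library and above it in every injured library. The ratio of *Igf2r* to *Igf1r* was 0.220, 0.275 and 0.225 in NI and 0.611 to 2.06 after injury, again without overlap. The ratio of *Igf1* to *Igfbp6* was 0.449 to 0.851 in NI, 0.595 to 1.18 in HS 72 h, 1.65 to 1.89 in HS 1 week and 5.53 to 12.3 in HS 2 weeks. After FT it was 0.956 to 2.56 at 72 h, 6.58 to 10.3 at 1 week and 3.50 to 6.87 at 2 weeks. The balance of ligand to this carrier thus overlapped NI in HS 72 h and lay above NI in every library of the other injured groups.

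Whether the severity of injury mattered was asked by comparing FT with HS at the same time. None of the 9 genes was called at any of the 3 times, where limma called 0% of all genes (0 of 16810 each time). At an unadjusted p under 0.05 there were 505, 724 and 438 of the 16810 genes. Each count was below the 0.05 share that would fall there with no difference at all. The *Igf1* differences, FT minus HS, were 0.34 (95% interval −0.19 to 0.88) at 72 h, 0.78 (0.18 to 1.38) at 1 week and 0.06 (−0.48 to 0.59) at 2 weeks. At 1 week the FT libraries of *Igf1* (139 to 239 CPM) were all above the HS ones (110 and 112 CPM), with an adjusted p of 0.999. *Igfbp6* at 1 week was lower after FT, at 2.37 to 2.60 CPM against 6.54 and 7.58 CPM, by 1.35 on the log2 scale (95% interval −1.95 to −0.76, limma adjusted p = 0.286). On the recovered reads, edgeR's likelihood ratio test (adjusted p = 0.0162) and DESeq2 (adjusted p = 0.0238) called *Igfbp6* there and edgeR's quasi-likelihood test did not (adjusted p = 0.291).

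Between times, the fit called 1 of the 9 genes from 72 h to 1 week after HS (*Igfbp5*, 6.03% of all genes in either direction). It called 4 from 72 h to 2 weeks (*Igf1* up, *Igfbp2*, *Igfbp5* and *Igfbp6* down, 4.74% of all genes) and 0 from 1 to 2 weeks (0.0119% of all genes). After FT it called 2 from 72 h to 1 week (*Igfbp2* and *Igfbp6*, both down, 3.44% of all genes), 1 from 72 h to 2 weeks (*Igfbp2*, 3.81%) and 0 from 1 to 2 weeks (0.0714%). All the falls were from 72 h, when the cell cycle sum was 520 to 845 CPM and the monocyte and macrophage sum 80.1 to 352 CPM, and the part of those cells in the falls was not tested.

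A list of 70 other genes of the pathway was read in the same fit, of which 65 were in the table. The absent ones were *Igfbp1*, *Igfals*, *Igfbpl1*, *Stc2* and *Hras*. In HS 72 h 1 was higher (1 of 65, against 9.08% of all genes) and 4 were lower (4 of 65, against 4.31%). Calls in the other injured groups were 0 higher and 1 lower for HS 1 week (all genes 1.70% and 0.482%), 1 and 1 for HS 2 weeks (2.43% and 0.797%), 2 and 0 for FT 72 h (8.14% and 4.09%), 0 and 1 for FT 1 week (2.86% and 1.20%), and 2 and 2 for FT 2 weeks (3.53% and 1.36%). The list's median difference was −0.26 to −0.06 against −0.11 to 0.02 for all genes. None of the 17 PI3K-AKT genes was called in any of the 6 comparisons with NI, where 0.482% to 9.08% of all genes were called in 1 direction. A gene that was not called is not thereby unchanged. Differences under 2-fold are not in these counts, and with no fold limit 15 of the 65 genes were called in HS 72 h. The share of all genes called with no fold limit is not given here, so the 15 cannot be set against it. In HS 72 h against NI, 6608 of the 16810 genes had an unadjusted p under 0.05 in the limma fit.

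Of the other ligands and receptors, *Igf2* was at 1.27 ± 0.253 CPM in NI and 0.874 to 2.26 CPM in the injured group means, with differences of −0.40 to 0.57 and no call. *Insr*, the insulin receptor, was at 31.8 ± 1.95 CPM in NI, 17.0 ± 3.25 CPM in HS 72 h and 19.0 ± 4.32 CPM in FT 72 h. Its differences there of −0.90 (adjusted p = 0.00122) and −0.76 (adjusted p = 0.00579) were under 2-fold, so it was not called, and at 1 and 2 weeks they were −0.21 to −0.07. Both receptor kinases were thus lowest at 72 h. *Irs1* (−0.63 to 0.07) and *Irs2* (−0.66 to 0.51), the main adaptors of these receptors, were not called. *Irs3*, a further adaptor, fell in HS 72 h by 1.84 (adjusted p = 0.00397), from 2.62 to 0.376 CPM.

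*Htra1*, a secreted protease that can cleave IGF-binding proteins, was at 6.43 to 13.4 CPM in NI and 0.562 to 6.74 CPM after injury. It fell in HS 72 h by 1.76 (adjusted p = 0.0117), in HS 1 week by 2.11 (adjusted p = 0.0417) and in FT 2 weeks by 2.35 (adjusted p = 0.00326). The FT 2 weeks call held under all 18 alternatives, while that of HS 1 week, the only pathway call there, was lost without any 1 of its 5 libraries and under 3 other alternatives (highest adjusted p 0.285). The HS 72 h call was lost without NI replicate 1 or HS 72 h replicate 3. The gene is also known from astrocytes, and 4 of 7 astrocyte markers were lower in FT 2 weeks, where they summed to 185 to 244 CPM against 383 to 651 CPM in NI. In HS 72 h 2 of 7 were lower and *Gfap* was higher (216 against 45.2 CPM), and in HS 1 week 2 of 7 were lower. Where *Htra1* was not called, 4 of 7 were lower in HS 2 weeks, 3 were lower and *Gfap* higher in FT 1 week, and 1 was lower and 2 higher in FT 72 h. The part of astrocyte RNA was not tested. *Ddit4*, an inhibitor of mTOR complex 1, fell in HS 72 h by 1.06 (adjusted p = 0.0227), in HS 2 weeks by 1.90 (adjusted p = 0.000921), in FT 1 week by 1.61 (adjusted p = 0.00361) and in FT 2 weeks by 1.53 (adjusted p = 0.00425). NI held 2.96 ± 0.830 CPM of *Ddit4*, and its HS 72 h call was lost under 6 of 18 alternatives, among them leaving out NI replicate 2, NI replicate 3 or HS 72 h replicate 2.

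*Nras*, a RAS GTPase, rose in HS 72 h by 1.23 (302 against 128 CPM, adjusted p = 0.000183) and in FT 72 h by 1.05 (adjusted p = 0.000899). *Gnptab*, which makes the mannose 6-phosphate tag that IGF2R recognises, rose in HS 2 weeks by 1.22 (45.0 against 18.9 CPM, adjusted p = 4.36e-05), in FT 72 h by 1.01 (adjusted p = 0.000113) and in FT 2 weeks by 1.36 (adjusted p = 7.26e-06). Both FT 72 h calls stood at the 2-fold limit. That of *Nras* was lost without NI replicate 3 or FT 72 h replicate 2, and that of *Gnptab* without NI replicate 3, FT 72 h replicate 1 or FT 72 h replicate 3. With columns scaled to 1 total no call of *Nras* or *Gnptab* was kept. Of the inhibitors of cytokine and growth factor signals, *Socs1* fell in HS 72 h by 1.19 (adjusted p = 0.0150) and *Socs2* rose in FT 2 weeks by 1.22 (adjusted p = 0.0379). The *Socs1* call was lost without HS 72 h replicate 1, and the *Socs2* call without any 1 of the 6 libraries compared. *Irs3*, *Socs1* and *Ddit4* were near the limit of detection, at 0 to 6 reads in their lowest library of the injured groups named.

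**Figure D5:**
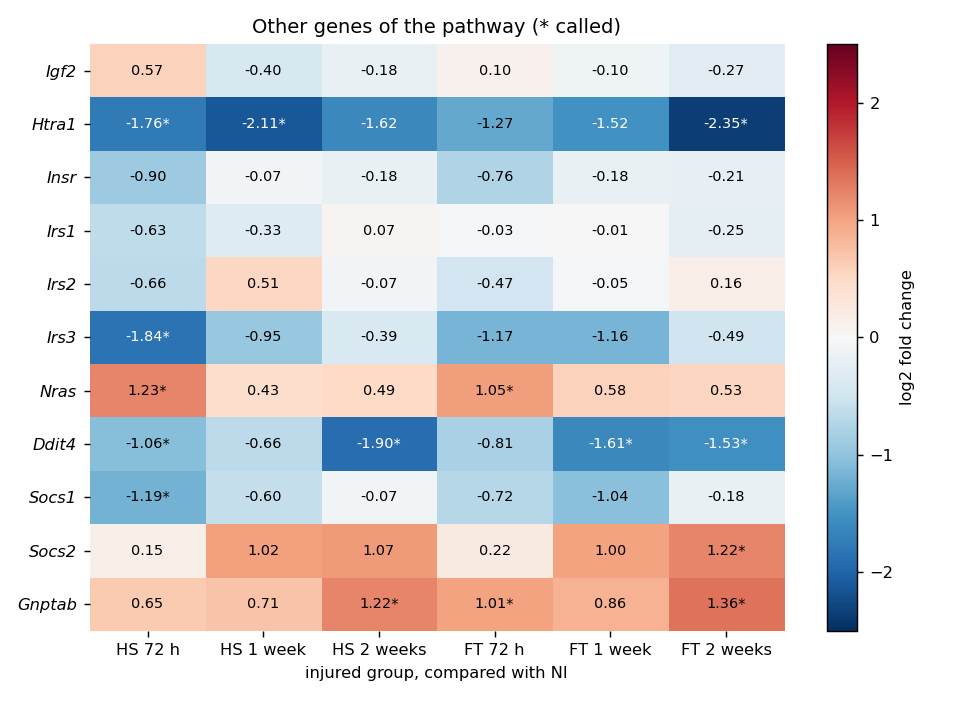
Log2 fold change against NI, on the log2(CPM + 0.5) scale, of 11 other genes of the pathway (rows) in the 6 injured groups (columns), with red for higher, blue for lower and a star for a call. *Htra1* and *Ddit4* were below 0 in all 6 groups, and *Nras* and *Gnptab* above 0.

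The genes whose level followed each abundant member most closely across the 20 libraries were found among 8301 genes with a mean of at least 10 CPM. Libraries of a group share their injury state and time, and depth differed between libraries. For *Igf1* they were *Cst7* (Pearson's r = 0.99), an inhibitor of lysosomal proteases, *Clec7a* (r = 0.98), the beta-glucan receptor dectin-1, and *Nceh1* (r = 0.98), a cholesterol ester hydrolase. Within the 17 injured libraries these r were 0.91, 0.89 and 0.85. For *Igf1r* they were *Brwd1*, *D14Abb1e* and *Med13l* (r = 0.92, 0.91 and 0.90), and for *Igf2r* they were *Cspg4*, *Psen2* and *Fam20c* (r = 0.94, 0.93 and 0.92). *Igfbp4* was followed less closely, by *Rgp1*, *Stx6* and *Pink1* (r = 0.80, 0.79 and 0.75). Among the members themselves the r of largest size was −0.91, between *Igf1r* and *Igfbp6*. The highest positive r was 0.78, between *Igf1* and *Igf2r*. Both were taken over all 20 libraries, NI included.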

How the data were processed

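The deposited values were signal: the authors removed adapters with FASTX-Toolkit, aligned reads to mm10 with TopHat2 2.0.9, counted genes with HTSeq 0.5.4p3, kept genes with 10 reads in at least 2 replicates and normalised counts by library size in edgeR 3.3.6. Strand is not stated in the sources used here. All 336200 values came out as whole reads (within 0.001 of a read's worth). Replicate libraries differed by at least 10.7 in chi-square per gene, so each was counted as a sample of its own. The members, gene lists and tests were chosen with earlier results of these data known.

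All values were fitted as log2(CPM + 0.5) with limma 3.58.1 (trend, R 4.3.3), with 1 mean per group and Benjamini-Hochberg adjustment over 16810 genes. All 9 members had at least 1 CPM in at least 2 samples. Alternatives were 0.1 or 1 CPM added, that low filter, only the compared groups, 3 other scalings, no fold limit, the replicate number as a block, edgeR 4.0.16 and DESeq2 1.42.0 on the recovered reads, and leaving out each library. The text names all 9 members, pathway genes called against NI at least once, *Igf2*, *Insr*, *Irs1* and *Irs2*, and the 3 genes most like each member of at least 10 CPM. The labels do not say that equal replicate numbers are paired. Among comparisons with 3 same-numbered pairs, each r was over 0.1 only in FT 2 weeks against NI (r 0.12 to 0.63) and in FT against HS at 72 h (0.22 to 0.48). With 2 pairs this also held in HS 1 week against 72 h (0.27 to 0.56) and in HS 2 weeks against 1 week (0.25 to 0.32). Exons, positions and neighbours came from GENCODE on GRCm38.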

Additional observations from a re-analysis of the deposited data

Results flagged for a closer look

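In 8 cases the difference of a gene from NI itself differed between times after the same injury, by the direct comparison of the injured groups in the limma fit. *Igf1* was higher by 1.12 on the log2 scale at 2 weeks than at 72 h after HS (higher in all 3 libraries, adjusted p = 0.00706). *Igfbp2* differed by −1.35 from 72 h to 2 weeks after HS, by −1.68 from 72 h to 1 week after FT and by −1.84 from 72 h to 2 weeks after FT. *Igfbp5* differed by −1.86 from 72 h to 1 week and by −1.83 from 72 h to 2 weeks after HS, and both rested on 1 library at 43.6 CPM. *Igfbp6* differed by −1.91 from 72 h to 2 weeks after HS and by −1.60 from 72 h to 1 week after FT.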

How the results depend on the processing

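No call of a member changed direction under any alternative. The share of all genes called under each alternative is not given here. The counts below, of members and of other pathway genes, therefore show only how the calls moved. The count of members called moved from 3 to 5 in FT 72 h with quantile normalization, from 0 to 1 for FT against HS at 1 week with edgeR's likelihood ratio test and with DESeq2, from 1 to 0 for HS from 72 h to 1 week with 0.1 CPM added, with only the compared groups and with columns scaled to 1 total, and from 4 to 2 with only the compared groups and to 6 with no fold limit for HS from 72 h to 2 weeks. From 72 h to 2 weeks after FT it moved from 1 to 2 with 0.1 CPM added, columns scaled to 1 total, no fold limit, both edgeR tests and DESeq2. Under such alternatives it also ran from 3 to 5 in HS 72 h, where the fit called 4. It ran from 2 to 3 in HS 2 weeks, as it did on leaving out 1 library, and from 3 to 4 in FT 2 weeks. In FT 72 h *Igf1r* was also called with no fold limit, both edgeR tests and DESeq2. Leaving out 1 library gave 2 to 4 members in HS 72 h (2 without replicate 1), 2 to 4 in FT 72 h, 1 to 2 in FT 1 week (1 without replicate 1), 0 to 1 for HS from 72 h to 1 week, 1 to 6 for HS from 72 h to 2 weeks and 1 to 2 for FT from 72 h to 2 weeks.

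The count of other pathway genes called moved in HS 72 h from 5 to 3 with 1 CPM added, 14 with columns scaled to 1 total and 15 with no fold limit. In HS 1 week it moved from 1 to 0 with 0.1 CPM added, the replicate block and edgeR's quasi-likelihood test, to 2 with only the compared groups and with no fold limit, and in HS 2 weeks from 2 to 4 with the likelihood ratio test and DESeq2. In FT 72 h it moved from 2 to 5 with only the compared groups, 12 with columns scaled to 1 total, 10 with no fold limit, and 4 with the likelihood ratio test and DESeq2. In FT 1 week it moved from 1 to 4 with quantile normalization, 5 with columns scaled to 1 total, 3 with no fold limit and the quasi-likelihood test, and 4 with the likelihood ratio test and DESeq2. Leaving out 1 library gave 0 pathway genes in HS 1 week, 2 to 4 in HS 2 weeks, 0 to 2 in FT 72 h and 1 to 4 in FT 1 week. Scaling columns to 1 total moved the median of all genes to −0.52 in HS 72 h and −0.48 in FT 72 h, and for the other changes the cause was not tested.

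The replicate block also called *Igfbp2* in HS 2 weeks against NI (−1.17, adjusted p = 0.0459), where libraries share only a number (r −0.36 to 0.03). Depth limits *Igfbp2*, *Igfbp3* and *Igfbp7*, which had 0 to 4 reads in their lowest libraries, and HS 1 week has 2 libraries.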
